A study of Mus musculus with 16 samples.

Results

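The BCL2 family decides whether a cell's mitochondria stay intact, and its transcripts are described here for 10 mouse genes across 16 bulk RNA libraries of leukaemia-propagating cells (LPC). The genes are a list of names, drawn up with earlier results of these data known: the pro-survival genes Bcl2, Bcl2l1 and Mcl1, the effectors Bax and Bak1, and the BH3-only genes Bcl2l11, Bid, Bad, Bbc3 and Pmaip1. All 10 were found among the 55414 Ensembl identifiers of the deposited table. Per the labels, all groups shared a Kmt2a-AFF1 fusion and an overexpressed microRNA, miR-128a, in mice that model the pro-B leukaemia of infants. Healthy cells and leukaemia without miR-128a were not analysed here. From bone marrow (BM) and from the central nervous system (CNS) lineage-negative cells that carry cKit were sorted by Sca1: those with Sca1 and also IL7R are called LSK here, and those without Sca1 LK (or CLP). With 4 libraries for each origin and sort, the groups are BM LSK, BM LK, CNS LSK and CNS LK. The labels used here name neither the age of the mice nor the number of animals behind a library. The study compared the niches (CNS against BM) and the LPC types (LSK against LK). The title of a library gives its number within its group, and its description gives a code that ends in a letter for the niche. The code before that letter, called the stem here, is shared by 1 BM and 1 CNS library, and each stem is named below by the LPC type and number in the titles (LSK 1, for example). The LSK and LK stems of the same number also begin alike. What the codes stand for was not stated, so p-values measure the spread between these libraries, which may in part be technical.

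The libraries held 19.2 to 29.2 M counts each (M for mega), with protein-coding genes accounting for 8.60 to 13.6 M. Levels are given as CPM, counts scaled to 1 M counts of a library after edgeR's TMM factors. Receptor genes of smell, which these cells should not use, served as a measure of background reads, and their summed level ran from 303 to 1064 CPM of named counts. Most markers did not bear out the labelled cell type: 8 of 10 pro-B genes had a median under 1 CPM. Among them were Cd79a (0.962 CPM), Cd79b (0.264 CPM), Ebf1 (0.653 CPM) and Pax5 (0.528 CPM). Only the recombinase gene Rag1 (271 CPM) and Dntt (57.6 CPM) lay higher. The summed pro-B list ran from 293 to 402 CPM in BM LSK, 257 to 570 in CNS LSK, 265 to 388 in BM LK and 360 to 439 in CNS LK, and Rag1 and Dntt made up most of it. Of the sort antigens, Kit (median 137 CPM) and Il7r (80.4 CPM) were present in all libraries. Ly6a, which encodes Sca1, was low at 0.466 to 2.26 CPM, and every LSK library lay above every LK library. The T-cell receptor gene Trbc1 had a median of 46.1 CPM, Cd4 of 8.86 CPM and Cd8a of 5.96 CPM. Of the 8 T and NK genes 5 had a median under 1 CPM, among them Cd3e at 0.238 CPM. In bulk RNA, fewer cells of a type and less RNA per cell cannot be told apart.

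BCL2 family proteins share short homology (BH) domains. The effectors BAX and BAK1 open pores in the outer mitochondrial membrane, which releases cytochrome c and starts the caspase cascade. BCL2, BCL-XL (from Bcl2l1) and MCL1 hold the effectors in check, and BH3-only proteins such as BIM (from Bcl2l11), BID, BAD, PUMA (from Bbc3) and NOXA (from Pmaip1) answer stress signals by occupying the pro-survival proteins or by activating the effectors. In lymphoid leukaemias this balance is a drug target, since BH3 mimetics fill the same groove. Much of the control lies on the proteins themselves, through phosphorylation, cleavage and turnover, and was not measured here.

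Because every library came from cells that overexpress miR-128a, the mature strand of this microRNA and its seed matches in the members are shown first. The RefSeq table (GRCm38.p6) lists the same mature strand at 2 loci, on chromosomes 1 and 9. The capitals in the microRNA mark its seed (bases 2 to 8), and those in the target sites mark the complementary 7 bases, CACTGTG, each read 5′ to 3′ in the sense of the transcript.
miR-128-3p: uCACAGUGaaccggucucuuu
Bcl2 site, chr1:106538890-106538911, minus strand: tatagacatctgtgCACTGTGc
Bcl2l11 site, chr2:128158466-128158487, plus strand: tggacagcgctctgCACTGTGt
Bak1 site, chr17:27020589-27020610, minus strand: ccaccctttttctcCACTGTGc
The seed match stood once in the longest annotated 3′ UTR of these 3 of 10 members (GENCODE vM21 on GRCm38), and in none of the other 7. Over 21020 genes with a 3′ UTR the share with a match was 18.9%. Long UTRs hold more matches: among UTRs of like length the share was 53.4% for Bcl2, 47.7% for Bcl2l11 and 18.5% for Bak1. The letters describe a match and do not show binding, and without a library lacking the microRNA its part in any level was not tested. The files' own build is GRCm39 per the submitters' processing notes, so the positions above are those of the reference and not of the files.

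To compare levels between genes, CPM was divided by the total exon length in kilobases. On this scale Mcl1 was the most abundant member at 24.9 ± 1.77 CPM per kilobase (mean and SD over 16 libraries). It was followed by Bid at 8.93 ± 1.07, Bak1 at 5.86 ± 1.05, Bax at 4.23 ± 0.468, Bcl2l11 at 3.76 ± 0.630 and Bad at 2.48 ± 0.339 CPM per kilobase. Bcl2l1 (2.20 ± 0.424), Bcl2 (1.56 ± 0.569), Bbc3 (0.581 ± 0.214) and Pmaip1 (0.0570 ± 0.0393 CPM per kilobase) were lowest. The ranges over libraries did not overlap between Mcl1 and Bid, nor between Bbc3 and Pmaip1, and every other pair of neighbours in this order overlapped. Within a library the order was steadier, since Bid lay above Bak1 and Bcl2 above Bbc3 in all 16, whereas Bax lay above Bcl2l11 in 11 of 16. The receptor genes stood at 0.0317 to 0.107 CPM per kilobase, which amounted to a median of 0.225% of the level of Mcl1, 4.71% of Bcl2 and 9.68% of Bbc3. For Pmaip1 the same background was 106% of the level.

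**Figure D1:**
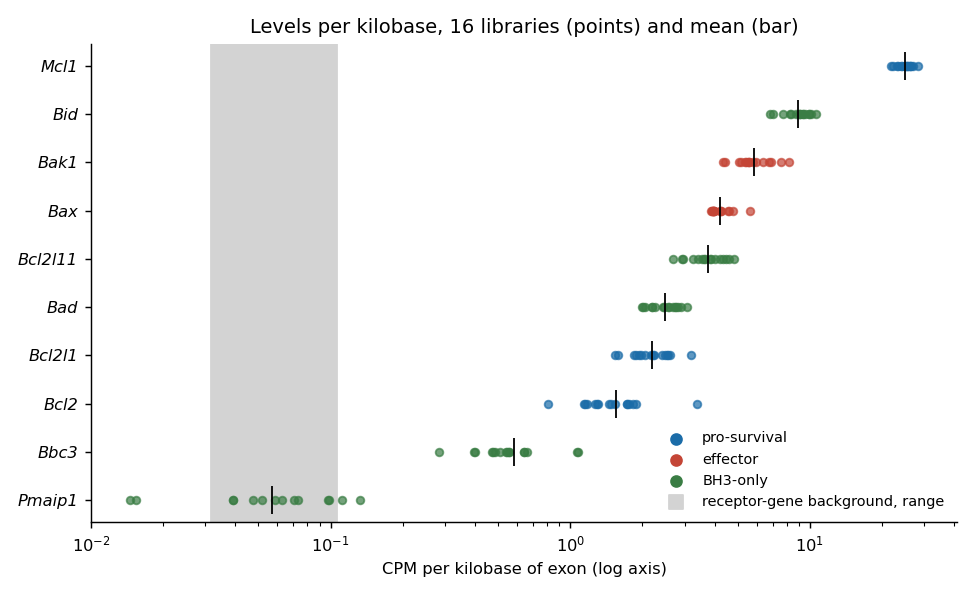
Levels of the 10 members per kilobase of exon (log axis, CPM per kilobase), with 1 point per library above 0, a bar at the mean, colours for the roles and grey for the range of the receptor-gene background. Mcl1 stands apart at the top (24.9 CPM per kilobase) and only the points of Pmaip1 overlap the background range.

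Of the 3 pro-survival genes, Mcl1 dominated at the RNA level. MCL1 is a short-lived protein on which early lymphoid and stem cells depend. Its transcript measured 74.1, 87.9, 87.2 and 88.9 CPM in BM LSK 1 to 4, 76.2, 85.1, 79.4 and 86.8 in CNS LSK 1 to 4, 82.1, 78.6, 85.3 and 92.3 in BM LK 1 to 4, and 89.8, 82.6, 96.6 and 90.0 CPM in CNS LK 1 to 4. All 4 groups overlapped, and the highest library exceeded the lowest only 1.30-fold. Per kilobase, Mcl1 made up between 82.7% (CNS LK 3) and 89.7% (BM LK 2) of the sum of the 3 pro-survival genes.

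Bcl2, the founding member and the target of venetoclax, varied most among the well-measured members, 4.19-fold from lowest to highest. It measured 11.6, 14.1, 17.2 and 11.8 CPM in BM LSK 1 to 4, 10.5, 15.7, 13.5 and 10.7 in CNS LSK 1 to 4, 15.8, 7.37, 16.1 and 13.3 in BM LK 1 to 4, and 16.8, 11.98, 30.9 and 10.4 CPM in CNS LK 1 to 4. Its highest and lowest libraries were both LK, and all groups overlapped. The CNS LK mean of 17.5 ± 9.30 CPM (SD, n = 4) rested on CNS LK 3: with that library the LK niche difference was 0.41 on the log2 scale (unadjusted p = 0.154, adjusted p = 1.00, edgeR's quasi-likelihood test), and without it the difference was -0.014.

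Bcl2l1, which gives the long form BCL-XL and a short pro-death form by splicing that gene-level counts do not separate, spanned 2.08-fold. It stood at 7.28, 11.7, 11.0 and 14.6 CPM in BM LSK 1 to 4, 7.03, 8.63, 9.09 and 12.002 in CNS LSK 1 to 4, 10.3, 8.44, 11.4 and 9.93 in BM LK 1 to 4, and 10.1, 8.89, 11.7 and 9.43 CPM in CNS LK 1 to 4. The groups overlapped, and the LSK libraries were spread more widely than the LK libraries in both niches (SD 3.01 and 2.07 against 1.24 and 1.20 CPM).

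Of the effectors, Bak1 was even across groups, while Bax had its highest mean in CNS LK. Bax measured 6.70, 6.28, 6.23 and 6.30 CPM in BM LSK 1 to 4, 6.73, 7.22, 6.13 and 6.20 in CNS LSK 1 to 4, 6.24, 6.08, 6.13 and 6.62 in BM LK 1 to 4, and 7.15, 8.89, 7.52 and 6.29 CPM in CNS LK 1 to 4. In 3 of 4 CNS LK libraries Bax lay above all BM LK libraries, and CNS LK 4 lay among them. Bak1 ranged from 10.4 (CNS LK 3) over a median of 13.4 to 19.7 CPM (BM LSK 4), and its group means of 14.7, 13.9, 14.1 and 13.8 CPM in BM LSK, CNS LSK, BM LK and CNS LK differed by less than the SD within any group (1.83 to 3.41 CPM).

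Among the BH3-only genes, Bid and Bad were the members whose CNS LSK libraries stood below the rest. BID is cleaved by caspase-8 and so couples death receptors to mitochondria. Its transcript measured 29.7, 32.2, 33.3 and 33.4 CPM in BM LSK 1 to 4, 24.2, 27.5, 24.8 and 29.3 in CNS LSK 1 to 4, 32.4, 37.5, 35.1 and 33.9 in BM LK 1 to 4, and 35.3, 35.8, 31.0 and 32.0 CPM in CNS LK 1 to 4. All 4 CNS LSK libraries lay below all 12 others, the narrowest gap being between 29.3 CPM in CNS LSK 4 and 29.7 CPM in BM LSK 1. BAD is held inactive by survival kinases that phosphorylate it. Bad measured 7.07, 6.64, 5.78 and 6.21 CPM in BM LSK 1 to 4, 5.60, 5.14, 5.10 and 5.25 in CNS LSK 1 to 4, 6.52, 5.62, 6.90 and 7.22 in BM LK 1 to 4, and 7.42, 7.87, 7.01 and 6.29 CPM in CNS LK 1 to 4. Here too all 4 CNS LSK libraries lay below the 12 others, with 5.60 CPM in CNS LSK 1 just under 5.62 CPM in BM LK 2. This pattern was picked out after the values were seen, and over all 18878 features tested 0.106% (20 features) had their 4 CNS LSK libraries below the 12 others.

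BIM, the product of Bcl2l11, binds all pro-survival proteins and is needed for the removal of self-reactive lymphocytes. Bcl2l11 measured 23.7, 27.4, 31.2 and 30.9 CPM in BM LSK 1 to 4, 26.1, 28.4, 35.9 and 33.7 in CNS LSK 1 to 4, 32.2, 21.6, 37.0 and 29.0 in BM LK 1 to 4, and 34.8, 23.5, 38.9 and 29.2 CPM in CNS LK 1 to 4. The groups overlapped widely, and the libraries of stem LK 2 were low and those of LK 3 high in both niches. Bbc3, whose product PUMA is induced by p53 and by FOXO factors, was low: its mean of 28.9 counts per library made each value imprecise. It ran from 0.602 (CNS LK 4) over a median of 1.16 to 2.29 CPM (BM LSK 1), and the libraries of stem LSK 1 were the highest in both niches, at 2.29 and 2.26 CPM. Pmaip1, which encodes the MCL1-directed protein NOXA, averaged 3.69 counts per library and was not tested. It had 0 counts in BM LSK 3 and CNS LSK 4, which allowed up to 0.133 and 0.136 CPM (counting error only), and its level exceeded the receptor background in 5 of 16 libraries.

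**Figure D2:**
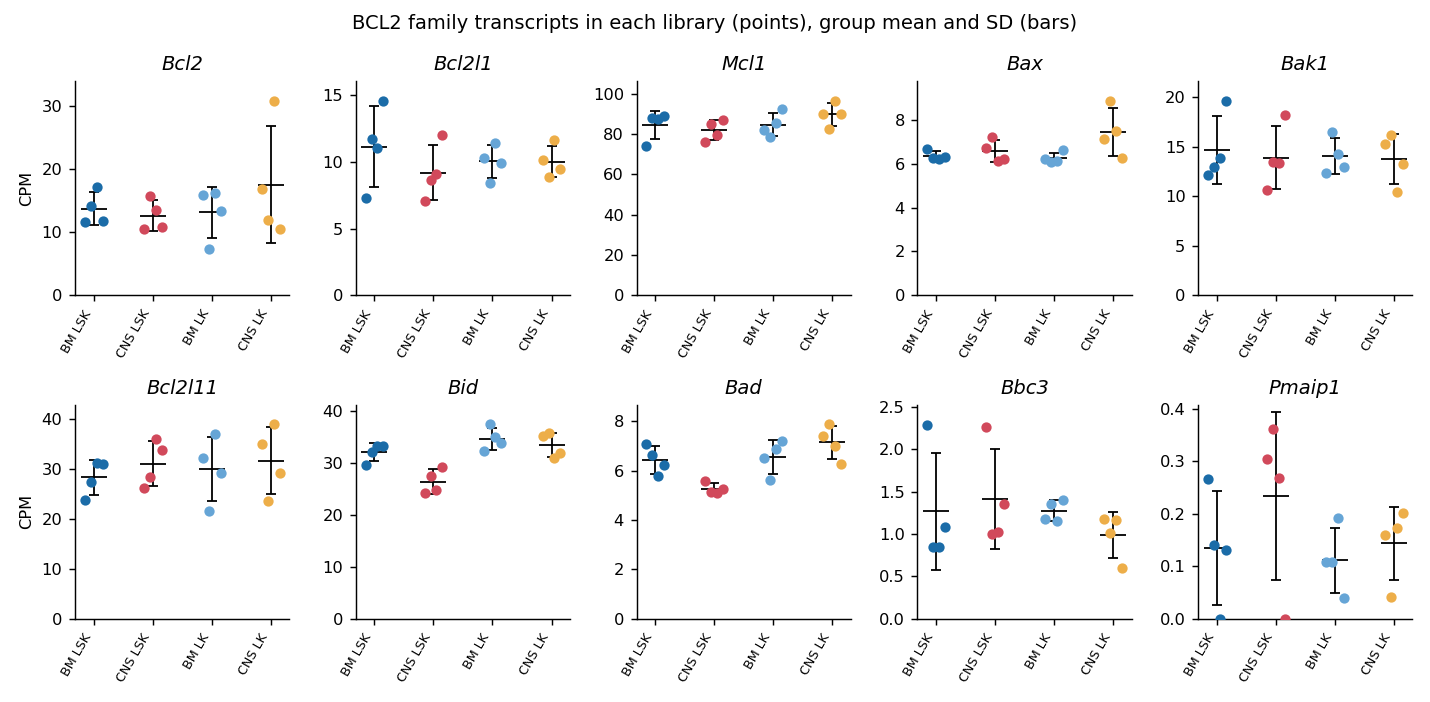
Level of each member in CPM (y axis, from 0) in the 4 libraries of each group (points), with the group mean and SD (bars). For Bid and Bad the 4 CNS LSK points lie below every other point, at 24.2 to 29.3 and 5.10 to 5.60 CPM.

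The comparison of niches asked which genes differ between leukaemia cells of the CNS and of the marrow. No tested member passed: by edgeR's quasi-likelihood test with Benjamini-Hochberg adjustment over 18878 features, 0 of 9 members had an adjusted p under 0.05 over both LPC types, within LSK or within LK, and the share over all features was 0% in each of the 3 comparisons. With the shared stem as a replicate block 126, 26 and 12 features passed in these comparisons, and again 0 of the 9 members. Over both types the largest changes among members were small. Bid was 0.165 lower in CNS on the log2 scale (-0.17 ± 0.056 SE, unadjusted p = 0.00781, adjusted p = 0.387) and was the 1 of 9 members with an unadjusted p under 0.05, against 9.15% of all features. Bcl2 (0.15), Bax (0.15), Bcl2l11 (0.10) and Mcl1 (0.02) lay above 0 on the log2 scale, and Bcl2l1 (-0.14), Bbc3 (-0.10), Bad (-0.08) and Bak1 (-0.05) below it. The median over the 9 members was -0.05, beside 0.00 over all features. For Mcl1 the 95% interval of the niche difference ran from 0.938-fold to 1.10-fold, the narrowest of the 9 on the log2 scale.

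Within LSK, Bid and Bad were lower in CNS in every library pair that shared a stem. The main fit, which did not use the pairs, called neither, nor did the fit with the stem as a replicate block. Over the alternatives (edgeR, DESeq2 or limma), left-out libraries aside, the lowest adjusted p was 0.139 for Bid and 0.371 for Bad. In the main fit, Bid had a mean of 32.1 ± 1.74 CPM in BM LSK and 26.5 ± 2.39 CPM in CNS LSK (SD, n = 4), a log2 difference of -0.28 ± 0.079 (unadjusted p = 0.00211, adjusted p = 0.855, edgeR). Bad stood at 6.42 ± 0.555 CPM in BM LSK and 5.27 ± 0.227 CPM in CNS LSK, a difference of -0.28 ± 0.12 (unadjusted p = 0.0285, adjusted p = 0.855). These were 2 of 9 members at an unadjusted p under 0.05, against 5.74% of all features, and the same 2 were the members whose CNS LSK and BM LSK libraries did not overlap, against 3.68% of features. The background index moved in the same direction as the niche: it ran from 303 to 803 in BM LSK and from 710 to 1064 in CNS LSK. With it as a covariate the LSK difference was -0.22 for Bid and -0.26 for Bad. The summed level of 9 myeloid markers was 4.20 to 5.78 CPM in BM LSK and 5.80 to 8.77 CPM in CNS LSK, with 8 of the 9 at a median under 1 CPM, and that of 6 microglial markers was 3.71 to 5.10 and 3.35 to 5.50 CPM. The part of such cells in the lower Bid and Bad was not tested. Within LK, Bax was the 1 of 9 members at an unadjusted p under 0.05 (3.99% of all features): it measured 6.27 ± 0.244 CPM in BM LK and 7.46 ± 1.08 CPM in CNS LK, a difference of 0.25 ± 0.12 (unadjusted p = 0.0443, adjusted p = 1.00). The microglial sum was 3.40 to 4.09 CPM in BM LK and 4.38 to 4.99 CPM in CNS LK, ranges that did not overlap, with 5 of the 6 genes at a median under 1 CPM, and the myeloid sum 4.26 to 5.97 and 4.66 to 10.1 CPM. Their part in the higher Bax values was not tested. In LK the niche difference was -0.05 for Bid and 0.12 for Bad. Whether the niche difference itself differed between LPC types was tested as an interaction: Bad gave -0.41 ± 0.17 (unadjusted p = 0.0257, adjusted p = 1.00) and Bid -0.23 ± 0.11 (unadjusted p = 0.0514, adjusted p = 1.00), and 0 of 9 members and 0% of features passed. Bad was the 1 member at an unadjusted p under 0.05 in this test, against 1.49% of features.

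The comparison of LPC types asked how LSK and LK cells differ. Over both niches 45 of 18878 features passed (0.238%, 43 of them higher in LSK), and 0 of 9 members did. That test took the BM and CNS libraries of a stem as independent replicates of an LPC type. With counts summed per stem 0 features passed, and with the stem as a random replicate block 11 did. A replicate block for the title number, which did not model the stem, gave 162. Of the members Bid came nearest in the main test, at -0.23 ± 0.056 on the log2 scale in LSK against LK (unadjusted p = 0.000676, adjusted p = 0.103, edgeR). Bad followed at -0.23 ± 0.084 (unadjusted p = 0.0119, adjusted p = 0.272). These were 2 of 9 members at an unadjusted p under 0.05, against 12.1% of features. With DESeq2 in place of edgeR, Bid passed (-0.22, adjusted p = 0.0306), and over the other alternatives, left-out libraries aside, its adjusted p reached 0.540. The other members lay between -0.20 (Bcl2) and 0.25 (Bbc3), and the member median was -0.07 beside -0.01 over all features.

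Within CNS the LSK libraries lay entirely below the LK libraries for Bid and for Bad (2 of 9 members), and over all features 3.65% had LSK and LK libraries that did not overlap there. The log2 difference was -0.34 ± 0.079 for Bid (unadjusted p = 0.000368) and -0.44 ± 0.12 for Bad (unadjusted p = 0.00166) and edgeR's adjusted p was 0.655 for both. Again 2 of 9 members had an unadjusted p under 0.05, against 6.58% of features, and 0 of 9 and 0% of features passed. Within BM the differences were -0.11 for Bid and -0.03 for Bad, 0 of 9 members had an unadjusted p under 0.05 (6.38% of features did), and 0 of 9 members and 0% of features passed. The niche comparison within LSK and the LPC comparison within CNS share the 4 CNS LSK libraries, so the low values of Bid and Bad enter both. The background index ran from 710 to 1064 in CNS LSK and from 381 to 912 in CNS LK. Over the alternatives, which include the background covariate, and left-out libraries aside, the CNS difference was -0.41 to -0.29 for Bid. For Bad it was -0.51 to -0.41.

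**Figure D3:**
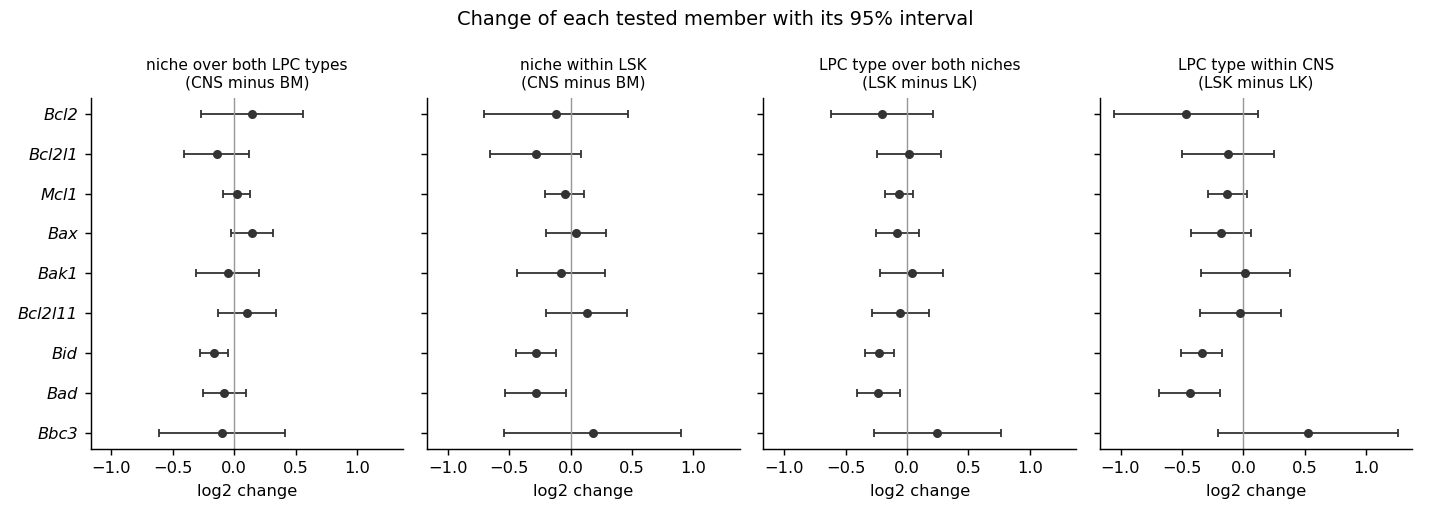
Log2 change of the 9 tested members (x axis) in 4 comparisons, with points for the fitted difference and bars for its 95% interval. Bid and Bad lie to the left of 0 in all 4, with intervals clear of 0 except for Bad in the niche comparison over both types, and no adjusted p is under 0.05.

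Bid and Bad were both low in the CNS LSK libraries, so the 250 bases before their first listed RefSeq start sites are printed with those of Bcl2l11 (RefSeq, GRCm38.p6, in the direction of transcription). Capitals mark the motif letters found on either strand, searched as GGGCGG (GC box), CACGTG (E-box), GTAAACA (forkhead factors), TTCNNNGAA (STAT factors), CCAAT and TGACGTCA (cAMP response element), where neighbouring GC boxes may overlap.
Bid, chr6:120916825-120917074, minus strand: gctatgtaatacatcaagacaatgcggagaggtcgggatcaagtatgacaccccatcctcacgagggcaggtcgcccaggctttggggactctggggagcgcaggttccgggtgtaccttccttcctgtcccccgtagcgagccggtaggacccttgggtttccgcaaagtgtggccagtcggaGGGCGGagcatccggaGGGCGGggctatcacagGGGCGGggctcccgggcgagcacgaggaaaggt
Bad, chr19:6941611-6941860, plus strand: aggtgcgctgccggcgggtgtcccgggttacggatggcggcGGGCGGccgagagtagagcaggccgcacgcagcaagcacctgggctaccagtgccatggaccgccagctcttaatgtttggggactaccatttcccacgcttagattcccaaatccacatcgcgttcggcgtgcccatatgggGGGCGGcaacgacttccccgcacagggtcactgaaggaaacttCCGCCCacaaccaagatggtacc
Bcl2l11, chr2:128125788-128126037, plus strand: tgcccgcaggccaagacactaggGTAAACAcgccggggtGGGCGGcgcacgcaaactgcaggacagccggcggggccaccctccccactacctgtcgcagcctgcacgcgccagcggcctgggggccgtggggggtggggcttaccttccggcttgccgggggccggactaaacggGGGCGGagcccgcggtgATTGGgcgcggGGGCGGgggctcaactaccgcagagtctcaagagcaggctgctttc
Each of the 3 windows held 3 GC boxes, and neither the Bid nor the Bad window held any other of the 6 motifs. The Bcl2l11 window also held 1 forkhead motif and 1 CCAAT box. A further listed window of Bad held 0 GC boxes and 1 CCAAT box. A further one of Bcl2l11 held 2 GC boxes, 2 CCAAT boxes and 0 forkhead motifs. The printed windows were rich in G and C, at 63.6% for Bid, 62.8% for Bad and 72% for Bcl2l11, beside a median of 52.4% over all windows. Of 32851 RefSeq windows of the same length, 32.7% held a GC box, 33.8% a CCAAT box, 7.02% the STAT motif, 6.02% the E-box, 3.17% the forkhead motif and 1.55% the cAMP response element. Among the members, 15 windows of 9 of the 10 genes were searched, some of which overlap, and Pmaip1 was left out of this search. Of these windows 10 held a GC box, 2 the forkhead motif (1 each of Bbc3 and Bcl2l11), and 0 the STAT motif. A match describes letters in this window only.

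Libraries of the same stem could be set side by side, 1 from BM and 1 from CNS. In 8 of 8 stems Bcl2l11 had more CPM in CNS than in BM, by 0.0075 to 0.20 on the log2 scale, against 1.49% of all features tested. The difference was small beside the spread between stems: the CNS excess averaged 0.13 ± 0.061 (SD) over the 4 LSK stems and 0.08 ± 0.052 over the 4 LK stems, whereas the stem means had an SD of 0.27. In the unpaired test, whose spread includes that between stems, the niche difference of Bcl2l11 over both types was 0.10 ± 0.11 (adjusted p = 0.850, edgeR). With the stem as a replicate block the adjusted p was 0.311 (edgeR). In all 4 LSK stems Bid, Bad and Bcl2l1 had lower values in CNS (3 of 9 members), as did 9.09% of features, while Bcl2l11 was the 1 member higher in all 4 (10.2% of features). For Bcl2l1 the LSK stem differences averaged -0.26 ± 0.16 (SD), from -0.05 in LSK 1 to -0.44 in LSK 2, and those of LK averaged 0.00 ± 0.064. The unpaired test gave -0.28 ± 0.18 for Bcl2l1 within LSK (unadjusted p = 0.128, adjusted p = 0.865). For Bid the LSK stem differences were -0.29, -0.23, -0.43 and -0.18, and the LK ones 0.12, -0.07, -0.18 and -0.08. For Bad they were -0.34, -0.37, -0.18 and -0.24 in LSK, and 0.19, 0.49, 0.02 and -0.20 in LK.

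**Figure D4:**
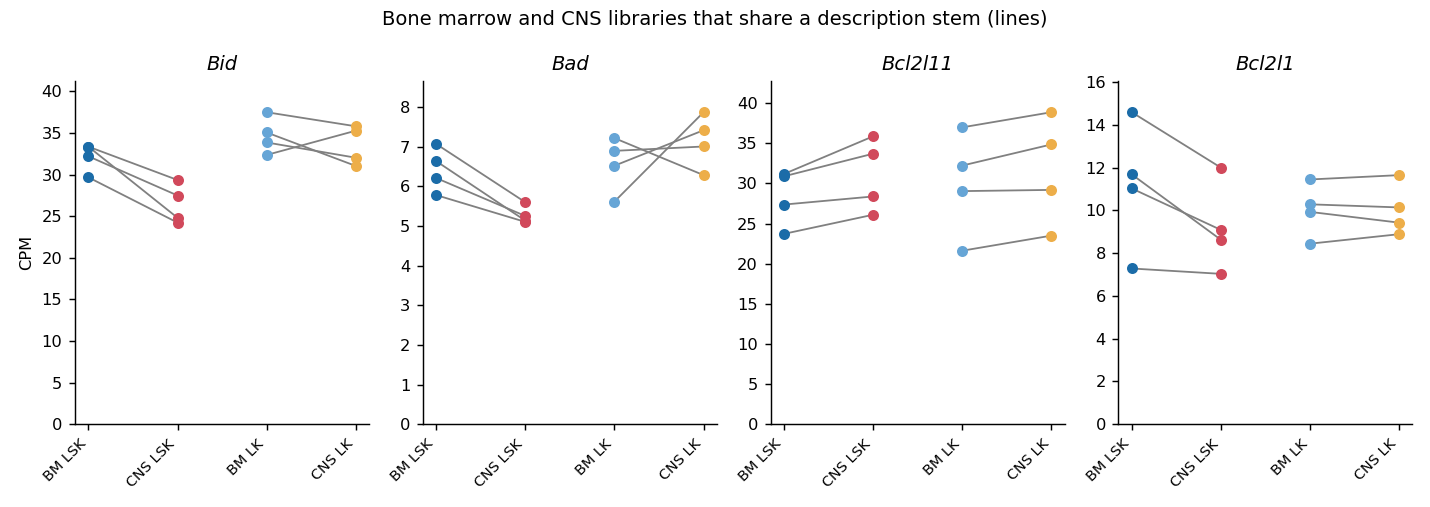
CPM (y axis, from 0) of 4 members in the BM and CNS libraries that share a description stem, joined by lines, with LSK on the left and LK on the right of each panel. All 4 LSK lines slope down for Bid, Bad and Bcl2l1, and all 8 lines slope up for Bcl2l11.

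The estimated likeness of the BM and CNS libraries of a stem ranged widely between members. It was described by the intraclass correlation of the 8 pairs after removal of the group means, where 1 means that a pair is identical. Bcl2l11 had 0.978, above 99.9% of the 11828 features whose mean reached 50 counts, and Bcl2l1 had 0.913, above 98.5%. Mcl1 (0.669), Bak1 (0.646), Bbc3 (0.645) and Bcl2 (0.581) lay above the feature median of 0.359, and Bid (0.349) near it. Bax (-0.287) and Bad (-0.441) had estimates below 0. Each estimate rests on 8 pairs and has no interval here, so single values are imprecise. The variation of Bcl2l11 between libraries therefore followed the stem, with an SD of 0.27 between stem means and of 0.057 for the BM to CNS difference on the log2 scale. Bmf, a further BH3-only gene, was next highest among the other apoptosis genes considered, at 0.888 (above 97.7% of features).

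**Figure D5:**
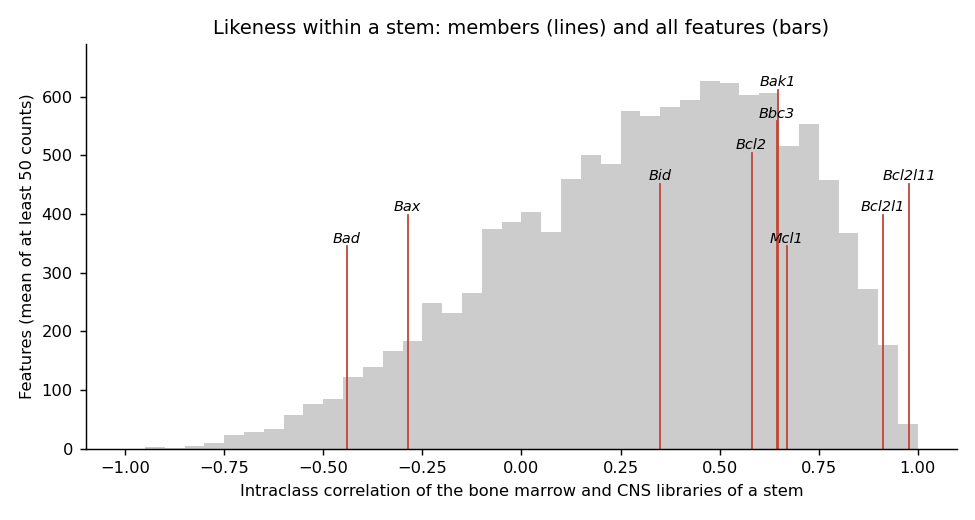
Intraclass correlation of the BM and CNS libraries of a stem (x axis) for features with a mean of at least 50 counts (bars, number of features) and for the 9 tested members (lines, whose height carries no value). Bcl2l11 (0.978) and Bcl2l1 (0.913) lie at the right edge, Bax (-0.287) and Bad (-0.441) at the left. Bbc3 is shown although its mean is 28.9 counts.

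Summed per kilobase by role, the shares of the family at the RNA level had similar group means. Mcl1 made up most of the pro-survival sum in every library, so these shares largely reflect it. Single CNS LK libraries ran from 48.6% to 56.8% for the pro-survival genes. The pro-survival genes made up 52.5% ± 2.04 of the family sum in BM LSK, 53.2% ± 0.810 in CNS LSK, 51.6% ± 2.12 in BM LK and 52.7% ± 3.50 in CNS LK (SD, n = 4). The effectors made up 18.6%, 19.3%, 17.9% and 18.2% in the same order. The BH3-only genes made up 28.9% ± 1.50, 27.5% ± 0.924, 30.4% ± 0.856 and 29.0% ± 0.943, and the ranges of CNS LSK (26.4% to 28.5%) and BM LK (29.3% to 31.3%) did not overlap. These groups differ in both niche and LPC type, and the pair was picked out after the values were seen. Per kilobase, Bid was the most abundant of the BH3-only members summed here. Bmf, a BH3-only gene outside the list, was not part of the sums. Its median was 44.6 CPM beside 32.3 CPM for Bid, neither divided by length. These shares describe the 10 genes as annotated and were not tested.

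The 15 other BCL2 family genes considered were mostly silent: 6 passed the filter of a mean of 10 counts, and the pro-survival genes Bcl2l2, Bcl2l10, Bcl2a1a, Bcl2a1b and Bcl2a1d did not. None of the 6 passed the test in the niche or the LPC comparison. Bmf, whose product binds pro-survival proteins after loss of attachment, had the smallest unadjusted p for LPC type, at -0.45 ± 0.23 in LSK against LK (unadjusted p = 0.0688, adjusted p = 0.457, edgeR). It ran from 18.1 CPM (CNS LSK 1) to 72.8 CPM (CNS LK 3), a span that among the tested members only Bcl2 exceeded. Without the filter on low counts Bmf passed (-0.50, adjusted p = 0.0311). For the niche the smallest p was that of Bcl2l14 (0.62 ± 0.34, unadjusted p = 0.0866, adjusted p = 0.622), at a mean of 13.4 counts.

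Downstream and upstream of the family little passed either. All 16 genes of the apoptosome, the caspases and their inhibitors were tested, and 0 passed in the niche or the LPC comparison. In the niche comparison 15 of the 16 had log2 values below 0, with a median of -0.06 beside 0.00 over all features. Vdac3, a channel of the outer mitochondrial membrane, had the smallest unadjusted p for the niche (-0.13 ± 0.055, unadjusted p = 0.0324, adjusted p = 0.504, edgeR). Endog, a mitochondrial nuclease, had the smallest for LPC type (-0.47 ± 0.22, unadjusted p = 0.0413, adjusted p = 0.393). Of the 8 death receptor genes 0 passed, Cflar, an inhibitor of caspase-8, being nearest for the niche (0.11 ± 0.055, unadjusted p = 0.0609, adjusted p = 0.573) and the kinase gene Ripk1 for LPC type (-0.11 ± 0.051, unadjusted p = 0.0503, adjusted p = 0.413). Of the 11 regulators of BCL2 family transcription or MCL1 turnover 0 passed, and Huwe1, a ubiquitin ligase of MCL1, was nearest in both comparisons (-0.07, unadjusted p = 0.126 for the niche, and -0.10, unadjusted p = 0.0449, adjusted p = 0.400 for LPC type).

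Of 14 genes of the p53 pathway 12 were tested, and 1 passed: Gtse1 rose in LSK (0.53 ± 0.096, adjusted p = 0.0203, edgeR), a gene of the G2 and S phases whose product restrains p53. That call was lost without CNS LSK 1, CNS LSK 3, BM LK 4 or CNS LK 3 (adjusted p from 0.0642 to 0.0690), with the background covariate (adjusted p = 0.118), with the stem as a random block at the estimated correlation (adjusted p = 0.0908) and with counts summed per stem (adjusted p = 0.171). Cdkn1a, the p53 target that encodes the cell cycle inhibitor p21, had a log2 niche difference of -1.50 ± 0.55 (unadjusted p = 0.0137, adjusted p = 0.429) at a mean of 30.3 counts. In 7 of 8 stems its CNS value was the lower one, for example 4.84 (BM) against 1.91 CPM (CNS) in LSK 1 and 3.64 against 0.516 CPM in LK 3. Stem LSK 4 went the other way, at 0.478 CPM in BM and 0.770 CPM in CNS. Stem LK 2 rested on 5 counts in BM and 1 in CNS. The share of all features with as many stems lower in CNS was not determined. Bbc3, also a p53 target, had a niche difference of -0.10 ± 0.25 (adjusted p = 0.960). Of 15 G2/M genes, which move with cell division, 10 rose in LSK (Ccnb1, Cdk1, Ube2c, Plk1, Aurka, Cdc20, Top2a, Mki67, Cenpf and Tpx2), with a list median of 0.49 beside -0.01 over all features. Ube2c rose most (0.72 ± 0.097, adjusted p = 0.00248). Left-out libraries gave 5 to 14 such calls, the background covariate left 2 (Ube2c and Tpx2), the stem as a random block at the estimated correlation left 4 (Ube2c, Cenpf, Tpx2 and Ccnb1), and counts summed per stem left 0. The part of cell division in the lower Bid and Bad of LSK was not tested.

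The features most like a member over the 16 libraries were named for the 3 highest values among 11640 candidates. Bcl2l11 was most like Etv5, an ETS factor gene (Pearson r = 0.936 over 16 log2 CPM values), with Ddit4 next (0.881). Bak1 was most like Lpxn (0.916), and Bcl2l1 most like the T-cell receptor gamma segment Trgv2 (0.900). These values describe the 16 libraries, in which the 2 libraries of a stem may not be independent, and carry no test.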

How the data were processed

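Total RNA of 16 sorted samples was made into strand-marked libraries with a kit meant for small amounts, per the labels' protocols. The authors deposited 1 table of whole-number counts per Ensembl gene. Its name calls the counts normalised, but they summed to different totals and their size factors ran from 0.804 to 1.302, so they were treated as raw counts. The submitters' processing notes name GRCm39 and DESeq2; the aligner, counter, annotation and use of strand are not given in the sources used here. Symbols were matched by identifier (52081 of 55414), and 0 columns were left unused. The members and gene lists were chosen with earlier results of these data known. A marker gene is not reported here and was left out of its list.

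edgeR 4.0.16 (R 4.3.3; glmQLFit and glmQLFTest, two-sided) was fitted to the counts with TMM scaling and 4 group means over all 16 libraries, for features with a mean of at least 10 counts. Benjamini-Hochberg adjustment ran over all 18878 features in each of 7 comparisons, with a threshold of 0.05. SE values are those of the fitted log2 change. Alternatives used DESeq2 1.42.0, limma 3.58.1, median-of-ratios scaling, no filter, identifiers with a symbol, a background covariate, replicate blocks, counts summed per stem, and each library left out. All 10 members were described; in the other lists the genes past the threshold were named, or else the gene with the smallest p. The BM and CNS libraries of a stem (the shared part of their descriptions) deviated together: r was over 0.1 in 8 of 8 stems (0.336 to 0.616, median 0.430) for features whose mean reached 50 counts, and in 5 of 8 (median 0.177) over all features tested. The main test did not use this pairing, and counts of calls with the stem as a block stand beside the niche results. LSK and LK libraries of the same title number had r over 0.1 in 6 of 8 pairs (median 0.219) for features whose mean reached 50 counts. Over all features tested this held in 3 of 8 pairs (median 0.0628). Scripts were tested on simulated data. Exon lengths and 3′ UTRs came from GENCODE vM21, motifs and promoters from RefSeq GRCm38.p6. Depth was 19.2 to 29.2 M (mega) counts per library, and counting error understates a library's error.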

Additional observations from a re-analysis of the deposited data

Results flagged for a closer look

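In 36 groups of 4 libraries (9 tested members, 4 groups each), 3 held a library set apart from the other 3 by more than Dixon's 95% limit of 0.829 of the group's range, where chance gives about 1.8. All 3 concerned BM LSK 1. Mcl1 stood at 74.1 CPM there, beside 87.2 to 88.9 CPM in the other BM LSK libraries. Bax stood at 6.70 CPM beside 6.23 to 6.30 CPM. Bbc3 stood at 2.29 CPM beside 0.845 to 1.09 CPM, and CNS LSK 1, of the same stem, had 2.26 CPM. BM LSK 1 had the fewest counts of the 16 libraries (19.2 M, or mega counts).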

How the results depend on the processing

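Of 32 member results, 745 values under 9 alternatives and 16 left-out libraries included 721 with the same direction and call, 1 new call and 23 changes of sign, none of them called. The new call was Bid by LPC type under DESeq2 (-0.22, adjusted p = 0.0306), which took the members called in that comparison from 0 to 1. Signs changed without the filter on low counts for Mcl1 by niche (-0.0395) and for Bcl2l1 (-0.0374) and Bak1 (-0.0178) by LPC type, and with the background covariate for Bak1 by niche (0.0667). Leaving out 1 library gave, by niche over both types, -0.0652 to 0.24 for Bcl2, -0.00926 to 0.0411 for Mcl1, -0.12 to 0.0336 for Bak1 and -0.26 to 0.11 for Bbc3. It gave -0.0140 to 0.60 for Bcl2 by niche within LK. By LPC type over both niches it gave -0.30 to 0.0104 for Bcl2, -0.0608 to 0.0931 for Bcl2l1, -0.11 to 0.00519 for Bcl2l11 and -0.0499 to 0.0932 for Bak1, and within BM -0.0946 to 0.0180 for Bad. Features called by niche over both types rose from 0 to 85 without the filter, 40 with DESeq2, 126 with the stem as a replicate block and 10 with it as a random replicate block. Within LSK they rose to 10 without the filter and 26 with the block, and within LK to 14 and 12. By LPC type over both niches the 45 features became 290 without the filter, 222 with DESeq2, 10 with the background covariate, 162 with a replicate block for the title number, 11 with the random replicate block and 0 with counts summed per stem, and 15 to 138 with 1 library left out. Within BM the count became 48 without the filter and 29 with DESeq2, and within CNS 38 and 6, with 0 to 2 and 0 to 3 when 1 library was left out. The causes were not tested.

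The stem block changed no member call: Bid gave -0.17 (adjusted p = 0.141) by niche over both types and Bcl2l11 0.10 (adjusted p = 0.311). With the stem block Cdkn1a passed by niche (-1.37, adjusted p = 0.0360), as it did without the filter (-1.56, adjusted p = 0.0141). It did not pass with the random replicate block (-1.24, adjusted p = 0.344), DESeq2 (-1.53, adjusted p = 0.398), median-of-ratios scaling (adjusted p = 0.423), identifiers with a symbol (adjusted p = 0.420), the background covariate (adjusted p = 0.999) or any library left out. The title number as a block gave Bid by LPC type an adjusted p of 0.0513. Low counts limited Bbc3 and left Pmaip1 untested.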
